A study of Mus musculus with 9 samples.

Results

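The SLC25 family comprises the carriers that move metabolites, nucleotides, cofactors and ions across the inner mitochondrial membrane. It was described here in interscapular brown adipose tissue through 43 genes. These were all rows of the deposited count table, matched by Ensembl mouse identifier, whose symbol begins with Slc25a, out of 55416 gene rows. The pseudogene Slc25a5-ps was left out, as were Slc25a4, Slc25a5, Slc25a31 and Slc25a44.

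The tissue came from C57BL/6J mice aged 8-10 weeks that expressed Cas9, in 9 samples. An AAV8 vector (an adeno-associated virus) at 1e+12 vector genomes per mL was injected into the brown fat, carrying a UCP1 sgRNA in 4 samples and a control sgRNA in 5. All mice were kept at 22 °C for 14 days before RNA was taken. Cas9 and the virus were therefore common to both groups, and the sources used here do not say which cells expressed Cas9 or whether each sample was 1 animal. The 9 columns of the count table are headed only by a number and the abbreviation BAT, and 0 of these numbers occur in the labels. The columns are called libraries A to I in the order of the table. No column was assigned to a guide, no comparison between guides was made, and values are given as the lowest, median and highest of 9 libraries that mix both guides.

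The libraries held 15460829 to 17909534 counted reads each, and genes of the mitochondrial genome took 22.3% to 33.9% of them. All 10 brown adipocyte markers reached at least 1 CPM (counts per 1000000 counts of the column) in every library. Their summed level ranged from 4808 CPM in library F to 8887 CPM in library B. That sum includes Ucp1, the guide target, at 396 CPM in library F and 4620 CPM in library B. It therefore does not rank the libraries by the other brown adipocyte markers. The steadiest was Cidea, a lipid droplet protein of brown adipocytes, with 1265 to 1749 CPM (1.38-fold). Of the 10, 6 had a range of at least 2-fold, up to 11.7-fold for Ucp1. The summed level of 10 skeletal muscle markers differed 19.2-fold between libraries, from 180.3 CPM in library B to 3453 CPM in library E. The summed red blood cell markers ranged from 237 to 458 CPM, the endothelial markers from 355 to 551 CPM, the fibroblast markers from 110.1 to 206 CPM and the general adipocyte markers from 5957 to 8468 CPM. The immune, nerve and liver markers summed to at most 20.5, 31.8 and 33.9 CPM, with Cd3e of T cells and Snap25 of neurons under 1 CPM in every library.

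In brown adipocytes, fatty acids enter mitochondria as acylcarnitines and are oxidised, and the uncoupling protein Ucp1 releases the energy as heat. Ucp1 itself belongs to the SLC25 family, although its symbol does not begin with Slc25a. The same cells build fatty acids from citrate that leaves the mitochondria, and they need carriers for phosphate, coenzymes, glutathione and iron to keep the respiratory chain working.

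Of the 43 carriers, 32 had at least 1 CPM in every library. The 4 sequences that follow belong to 2 pairs of related carriers in which 1 gene held over 98% of the pair's level in every library and each gene has 1 promoter window in the reference. They are the acylcarnitine carrier Slc25a20 with its relative Slc25a29, and the glutathione carriers Slc25a39 and Slc25a40, chosen after their values were seen. Each is a RefSeq window of GRCm38.p6 from 250 bases before to 50 bases after the gene's start, read along the gene's strand. This build is older than the GRCm39 of the counts, and the windows were matched by symbol. Capitals mark the Sp1 box GGGCGG and the CCAAT box CCAAT, on either strand.
Slc25a20 (chr9:108661886-108662185, plus strand): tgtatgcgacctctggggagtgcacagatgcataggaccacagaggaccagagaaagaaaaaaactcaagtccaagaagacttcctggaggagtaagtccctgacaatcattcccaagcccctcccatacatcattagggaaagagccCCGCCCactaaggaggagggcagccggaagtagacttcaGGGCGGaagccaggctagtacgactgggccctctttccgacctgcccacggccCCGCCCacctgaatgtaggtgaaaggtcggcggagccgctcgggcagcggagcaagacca
Slc25a29 (chr12:108835827-108836126, minus strand): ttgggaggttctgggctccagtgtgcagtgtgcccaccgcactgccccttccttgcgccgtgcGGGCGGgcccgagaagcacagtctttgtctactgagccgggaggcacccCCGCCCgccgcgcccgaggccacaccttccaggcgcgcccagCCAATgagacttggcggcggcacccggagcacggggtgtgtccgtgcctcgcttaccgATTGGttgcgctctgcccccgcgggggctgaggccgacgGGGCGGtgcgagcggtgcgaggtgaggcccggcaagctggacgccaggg
Slc25a39 (chr11:102407468-102407767, minus strand): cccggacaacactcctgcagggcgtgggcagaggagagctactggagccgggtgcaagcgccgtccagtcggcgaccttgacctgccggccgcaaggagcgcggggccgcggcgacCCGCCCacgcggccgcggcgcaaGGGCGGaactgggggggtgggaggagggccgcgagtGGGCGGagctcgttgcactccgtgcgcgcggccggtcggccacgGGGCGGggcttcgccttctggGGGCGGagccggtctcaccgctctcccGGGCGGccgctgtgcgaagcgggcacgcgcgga
Slc25a40 (chr5:8422588-8422887, plus strand): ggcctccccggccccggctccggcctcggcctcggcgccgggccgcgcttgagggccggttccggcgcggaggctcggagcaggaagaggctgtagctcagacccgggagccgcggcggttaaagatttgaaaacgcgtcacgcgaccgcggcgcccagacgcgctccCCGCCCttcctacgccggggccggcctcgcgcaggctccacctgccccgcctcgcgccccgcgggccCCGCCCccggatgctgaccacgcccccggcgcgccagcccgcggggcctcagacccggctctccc

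The Sp1 box occurred 3 times in the Slc25a20 window, 3 times in that of Slc25a29, 6 times in that of Slc25a39 and 2 times in that of Slc25a40. The CCAAT box occurred 2 times in the Slc25a29 window and 0 times in the other 3. Windows were found for 33 of the 43 carriers, 43 windows in all. The Sp1 box was in 81.4% of these carrier windows and in 35.7% of all 32851 RefSeq windows of the same length, and the CCAAT box in 48.8% and 37.4%. The windows were not matched for their share of G and C, which was 58.0% (Slc25a20) to 79.0% (Slc25a40) in the printed ones. Whether the Sp1 box shares differ for that reason was not tested. Neither TCAAGGTCA (estrogen-related receptor element) nor the NRF1 palindrome, both searched on either strand, was in a carrier window, against 0.423% and 0.971% of all windows. Only exact matches were searched, and at such low shares 43 windows are too few to show an absence. The 4 motifs do not contain one another.

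Levels of different carriers were set side by side as CPM per kilobase of exon. Slc25a1, the citrate carrier that exports citrate for fatty acid synthesis, had the highest level per kilobase in 9 of 9 libraries. Its level was 199.7 CPM per kilobase at the lowest, 393 at the median and 413 at the highest. It alone held a median of 27.1% of the summed level per kilobase of the 43 carriers, the first 3 carriers held 51.4%, and the first 8 held 76.6%. Slc25a1, Slc25a39 and Slc25a20 came first per kilobase of exon, in that order. Slc25a1 stayed first without division by length and with coding length, while Slc25a39 moved to place 3 and 4 and Slc25a20 to place 2 in both.

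**Figure D1:**
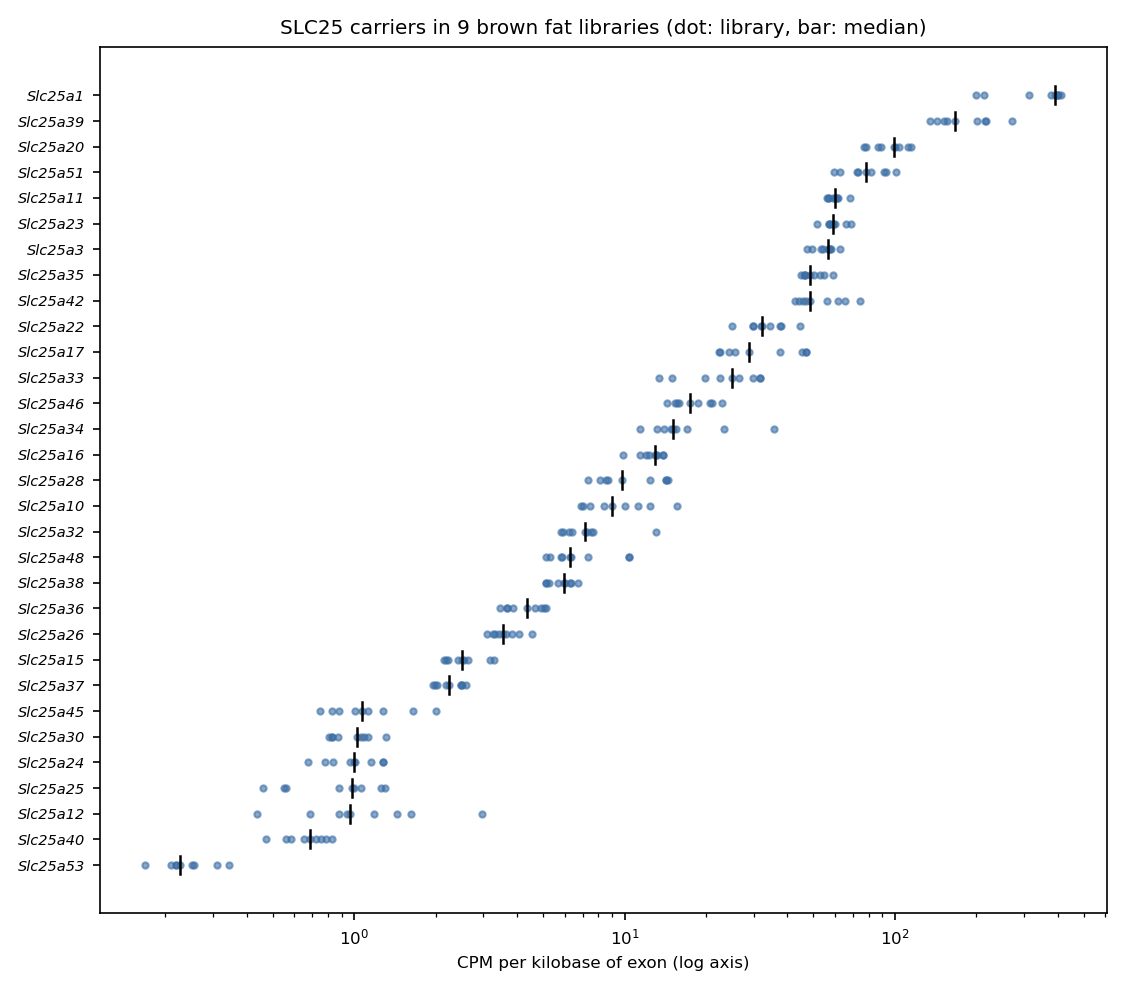
Level of 31 of the 32 carriers with at least 1 CPM in every library, in CPM per kilobase of exon on a log axis, ordered by median (dots are the 9 libraries, bars the medians). Slc25a1 stands at the top with a median of 393 and Slc25a53 at the bottom with 0.227 CPM per kilobase.

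Slc25a39, which imports glutathione, was second with 135.3, 167.6 and 271 CPM per kilobase at the lowest, median and highest library. Slc25a20, which brings acylcarnitines in for oxidation, came next with 76.9, 98.9 and 115 CPM per kilobase. The ranges of Slc25a39 and Slc25a20 per kilobase of exon did not overlap. This order depends on the exon lengths, since Slc25a39 was the higher in 9 of 9 libraries per kilobase of exon, in 7 in undivided CPM (where the ranges overlapped, with medians of 462 and 479) and in 2 per kilobase of coding length. Slc25a1 exceeded Slc25a39 in 9 of 9 libraries, although their ranges over libraries overlapped.

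Slc25a51, the NAD+ importer, had 59.4 to 101.3 CPM per kilobase with a median of 78.1.

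Slc25a11, the oxoglutarate-malate carrier of the malate-aspartate shuttle, had a median of 60.3 CPM per kilobase (56.2 to 68.2). Slc25a23, a calcium-regulated carrier exchanging ATP-Mg for phosphate, had a median of 59.0 (51.4 to 68.6) and Slc25a3, which imports phosphate for ATP synthesis, 56.8 CPM per kilobase (47.5 to 62.7). The 3 ranges overlapped, and Slc25a11 exceeded Slc25a23 in 5 of 9 libraries. That closeness depends on the exon lengths. In undivided CPM and per kilobase of coding length, Slc25a11 exceeded Slc25a23 in 0 of 9 libraries, with 119 to 144.5 against 272 to 363 CPM undivided.

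Over the 31 neighbouring places in the order of the 32 carriers, 28 had overlapping ranges. The exceptions were Slc25a39 above Slc25a20, Slc25a38 (whose glycine is needed for haem) above Slc25a36, and Slc25a40 above Slc25a53. Of these, Slc25a40 was above Slc25a53 in 9 of 9 libraries under both other length settings too. Slc25a38 was above Slc25a36 in 0 of 9 under either, with 14.06 to 18.4 against 33.2 to 48.9 CPM undivided. The level of Slc25a35, ninth with a median of 48.6 CPM per kilobase, carries a further limit. In GENCODE M21, 31.3% of its exon bases are also exon of Rangrf on the opposite strand, and the strand setting of the counts is not given in the sources used here. Slc25a33 shares 14.9% of its exon bases with the antisense gene Gm13068, and no other carrier shares over 10% with another gene.

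Slc25a42, which brings in coenzyme A, had a median of 48.5 CPM per kilobase (42.9 to 74.2), and Slc25a22, a glutamate carrier, of 32.3 (24.97 to 44.6). Slc25a17 had a median of 28.8 CPM per kilobase (22.5 to 46.98) and the pyrimidine nucleotide carrier Slc25a33 of 24.96 (13.4 to 31.8). Slc25a46, a protein of the outer membrane that takes part in mitochondrial fission and fusion, had a median of 17.5 CPM per kilobase (14.4 to 22.9). Slc25a34 and Slc25a16 followed with medians of 15.1 and 12.9 CPM per kilobase.

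The iron importer Slc25a28 had a median of 9.75 CPM per kilobase, the dicarboxylate carrier Slc25a10 of 9.003, the folate and FAD carrier Slc25a32 of 7.16, the choline carrier Slc25a48 of 6.27 and the glycine carrier Slc25a38 of 5.96. Slc25a36, Slc25a26 (which imports the methyl donor S-adenosylmethionine), Slc25a15 and Slc25a37 had medians of 4.35, 3.56, 2.51 and 2.24 CPM per kilobase. Slc25a45, Slc25a30, Slc25a24, Slc25a25, Slc25a12, Slc25a40 and Slc25a53 had medians between 0.227 and 1.07 CPM per kilobase. Slc25a12 stood among the 7 lowest of the 32 carriers, while its partner in the malate-aspartate shuttle, Slc25a11, was sixth of all. Slc25a11 stood at place 11 without division by length and with coding length.

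The remaining 11 carriers fell under 1 CPM in some library. Slc25a29, Slc25a47, Slc25a27 and Slc25a14 crossed the limit, with medians of 1.79, 1.70, 1.79 and 1.03 CPM. The other 7 stayed under 1 CPM in every library: Slc25a2 (33 reads over all libraries), Slc25a13 (27), Slc25a18 (17), Slc25a43 (11), Slc25a21 (4), Slc25a41 (2) and Slc25a54 (0). For Slc25a54, 0 reads over the 9 libraries allow a pooled level of up to 0.0197 CPM (3 reads, counting error only).

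The choice between related carriers was followed in 14 sets of paralogues or functional relatives, as the share of each gene in its set's summed CPM per kilobase. In all 14 sets, 1 gene led in every library per kilobase of exon, and in 13 of them the same gene did so under both other length settings. In 6 of them the leading gene kept at least 90% of the level in every library.

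**Figure D2:**
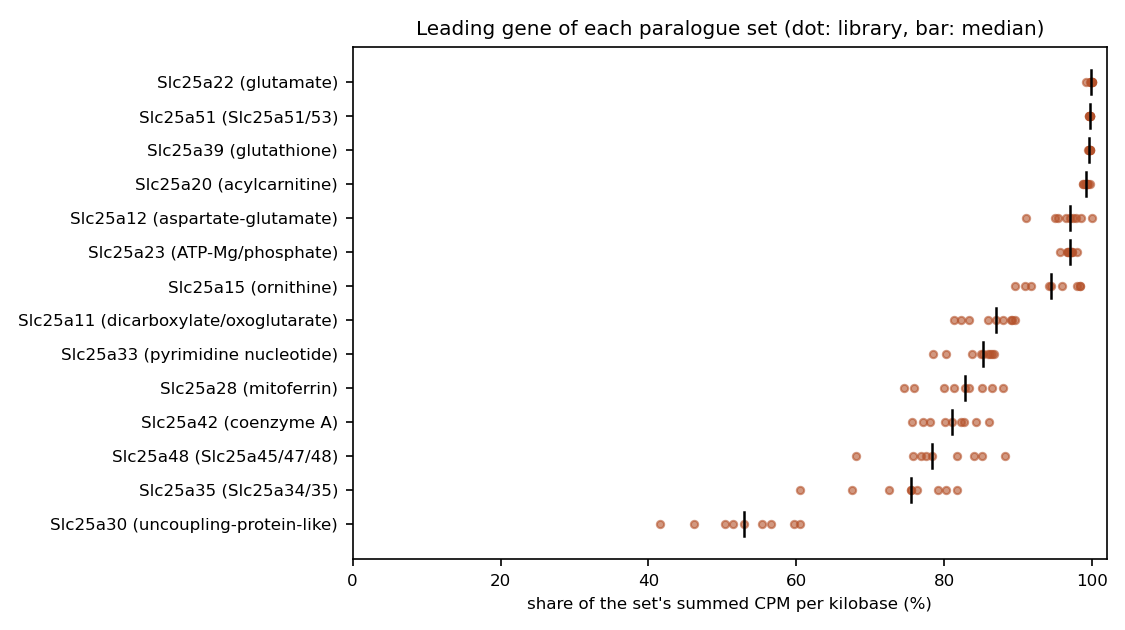
Share of the leading gene in each of the 14 sets, as percent of the set's summed CPM per kilobase (dots are the 9 libraries, bars the medians). Slc25a22, Slc25a51, Slc25a39 and Slc25a20 lie above 98% in every library, and Slc25a30 lies between 41.5% and 60.4%.

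For fuel entry, Slc25a20 held 98.7% at the lowest and 99.7% at the highest library against Slc25a29, a related carrier of basic amino acids. For glutamate, Slc25a22 held at least 99.2% against Slc25a18. For the aspartate-glutamate exchange of the malate-aspartate shuttle, Slc25a12 (aralar) held at least 91.0% against Slc25a13 (citrin, the form known from liver). The Slc25a13 share rests on at most 9 reads in a library. Between the dicarboxylate carriers, Slc25a11 held 81.3% to 89.5% and Slc25a10, which exchanges malate or succinate for phosphate, the rest.

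Among the ATP-Mg carriers, Slc25a23 held 95.7% to 97.9%, Slc25a24 at most 2.14%, Slc25a25 at most 2.17% and Slc25a41 at most 0.0744%. Among the ornithine carriers of the urea cycle, Slc25a15 held 89.6% to 98.3% against Slc25a2. For glutathione, Slc25a39 held 99.4% to 99.8% against Slc25a40, and against Slc25a53 the NAD+ importer Slc25a51 held 99.6% to 99.8%.

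Other sets were divided between expressed partners. Of the mitoferrins, which import iron, Slc25a28 (mitoferrin 2) held 74.5% to 87.9% and Slc25a37 (mitoferrin 1, the form of red cell precursors) the rest, with 11.8 to 15.6 CPM. Of the carriers linked to coenzyme A, Slc25a42 held 75.6% to 86.0% and Slc25a16 the rest. Slc25a35 held 60.4% to 81.8% against Slc25a34, and Slc25a48, a choline carrier, held 68.0% to 88.2% against Slc25a45 and Slc25a47. The overlap of Slc25a35 with Rangrf, 31.3% of its exon bases, limits its share as well, since Slc25a34 has no such overlap.

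Of the pyrimidine nucleotide carriers, Slc25a33 held 78.5% to 86.7% per kilobase and Slc25a36 the rest. This margin depends on the exon lengths, since Slc25a33 held a median of 85.2% per kilobase and 53.04% of the undivided CPM. Slc25a33 led in 7 of 9 libraries in undivided CPM, where Slc25a36 was the higher in libraries D and E, and in 6 of 9 per kilobase of coding length. The overlap of Slc25a33 with Gm13068, 14.9% of its exon bases, is a further limit on its share. Among the uncoupling-protein-like carriers, Slc25a30 had a median of 52.9%, Slc25a14 of 23.7% and Slc25a27 (known from brain) of 22.9%, all at medians of at most 4.67 CPM.

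The summed level of the 43 carriers was 4109 CPM in library A, 4561 at the median and 5363 in library I, a 1.31-fold range. Library I also had the lowest share of reads from the mitochondrial genome, 22.3%, and library A had 33.8%. With totals taken without the mitochondrial genome, scaled to the same mean, the range was 1.11-fold, from 4399 to 4892 CPM. It was 1.275-fold with edgeR TMM scaling and 1.296-fold with DESeq2 size factors. With totals taken without Ucp1 or without the muscle markers it was 1.301- and 1.304-fold. Library A was lowest and library I highest in each of these settings. In whole tissue, fewer cells of a type and less RNA per cell cannot be told apart.

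Highest over lowest library ranged from 1.21-fold for Slc25a11 to 6.77-fold for Slc25a12 among the 32 carriers, with a median of 1.74, beside 1.64 for all 11074 genes with at least 1 CPM in every library. A range of at least 2-fold was found for 12 carriers (37.5%), beside 25.4% of all genes. That count was 10 with TMM and with DESeq2 size factors, for which no share of all genes is given here. Among 15 other mitochondrial genes, 1 reached 2-fold in CPM, Ucp2 at 2.44. These genes were chosen for reference, among them the pyruvate carriers Mpc1 and Mpc2, the porins Vdac1 to Vdac3 and citrate synthase Cs. The 15 included Ucp2, Ucp3, Mtch1 and Mtch2, which also belong to the SLC25 family under other symbols.

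**Figure D3:**
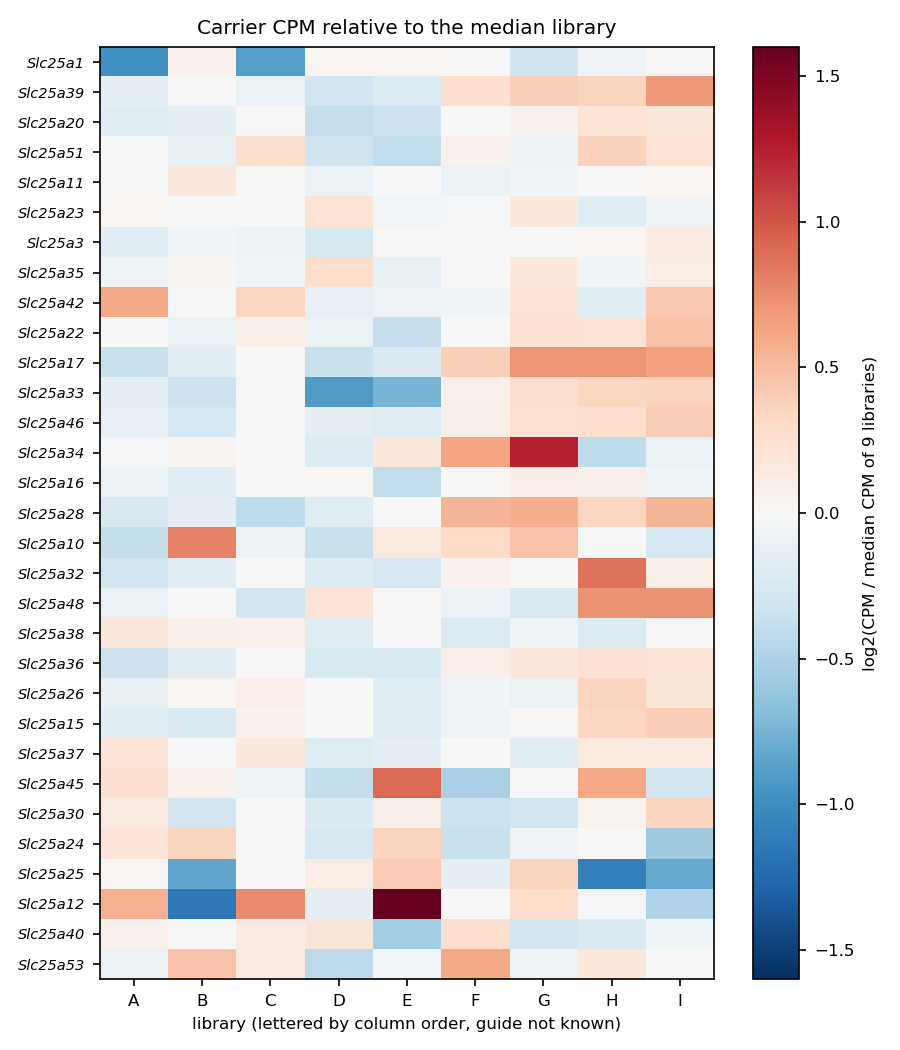
log2 of each carrier's CPM over its median of 9 libraries, for 31 of the 32 carriers (rows, by level per kilobase) in the 9 libraries (columns, lettered by column order, guide not known). The deepest red is Slc25a12 in library E, and Slc25a1 is blue in libraries A and C.

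Slc25a12 had 3.22 CPM in library B, 7.09 at the median and 21.8 CPM in library E. Slc25a34, a carrier related to Slc25a35, had 30.5, 40.3 and 95.7 CPM, a 3.13-fold range with its highest value in library G. Slc25a25, another calcium-regulated ATP-Mg carrier, had 3.60, 7.70 and 10.2 CPM, a 2.84-fold range.

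Slc25a45 had 2.07, 2.96 and 5.56 CPM, a 2.69-fold range that rests on 37 to 86 reads. Slc25a33 had 25.2 CPM in library D, 47.1 at the median and 60.1 in library I, a 2.38-fold range. The counting error of the lowest library was 4.82% for Slc25a33 and 16.4% for Slc25a45.

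Among the abundant carriers, Slc25a1 had 432 CPM in library A, 849 at the median and 893 in library B. Slc25a39 had 373, 462 and 747 CPM, lowest in library D and highest in library I. Slc25a17, the peroxisomal carrier of coenzyme A and FAD, had 63.9, 82.0 and 134 CPM. These ranges were 2.07-, 2.004- and 2.09-fold.

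Slc25a42 had 257, 291 and 445 CPM, and was highest in library A. By contrast Slc25a11, Slc25a38, Slc25a35, Slc25a3, Slc25a37 and Slc25a23 each stayed within a range of 1.21- to 1.34-fold in CPM. For Slc25a23 and Slc25a35 this depended on the scaling. With TMM and DESeq2 size factors their ranges were 1.54- and 1.53-fold for Slc25a23 and 1.45-fold in both for Slc25a35. The others named stayed between 1.24- and 1.35-fold under these scalings.

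The levels of Ucp1, the guide target, were 396 CPM at the lowest, 2704 at the median and 4620 at the highest library. A gap of 60.9% of its log2 range separated 4 libraries from the other 5. Such a gap, over 50% with at least 2 libraries on each side, marks separate clusters. A correlation of the carriers with Ucp1 was therefore not given, and neither side holds the 6 libraries set here as the minimum for a correlation within it. The relation of the carriers to Ucp1 was not tested.

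The skeletal muscle markers showed no such split, and their relation to the carriers was examined after the data were seen. Pearson's r was taken between log2(CPM + 1) of each gene and of the summed markers over 9 libraries, with a 2-sided exact permutation test. Slc25a1 was left out because its own values met the gap rule, as did those of 2.01% of all genes. Of the other 31 carriers, 1 was called at an adjusted p under 0.05, Slc25a12, and it was higher with the markers. Of 11064 genes outside the marker list, 0.461% were called higher and 0.00904% lower with the markers, and by Spearman's rho 0.136% higher and 0.00904% lower.

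**Figure D4:**
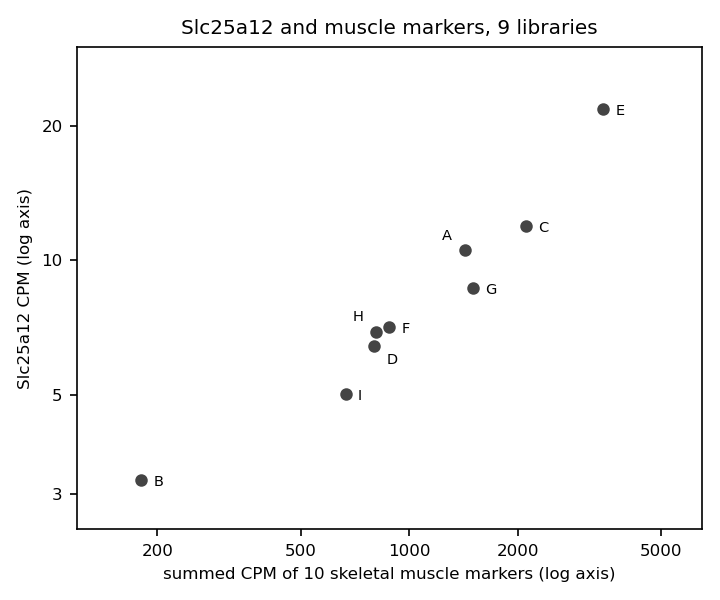
Slc25a12 in CPM against the summed CPM of 10 skeletal muscle markers in the 9 libraries, both on log axes, each point labelled with its library letter. Library B is lowest on both axes (3.22 and 180.3 CPM) and library E highest (21.8 and 3453 CPM).

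Slc25a12 CPM with the summed muscle markers in brackets was 3.22 (180.3) in library B, 5.02 (666) in I, 6.43 (799.9) in D, 6.92 (809) in H and 7.09 (882) in F. It was 8.65 (1504) in G, 10.5 (1426) in A, 11.9 (2107) in C and 21.8 (3453) in E. The order of the libraries was the same in both measures save for libraries A and G. Pearson's r was 0.956 (exact permutation p = 0.000201, Benjamini-Hochberg adjusted p = 0.0378 over all genes tested), and Spearman's rho was 0.983 (exact permutation p = 4.96e-05, adjusted p = 0.0262). Without libraries B and E, farthest from the median of the markers, r was 0.956 (exact permutation p = 0.00139, adjusted p = 0.457). The adjusted p was above 0.05 when any single library but G was left out (0.0405 without G, up to 0.305 without C), with r between 0.953 and 0.973. With 1 library left out, the exact permutation p lay between 0.000124 (without G) and 0.00179 (without C). Fewer libraries allow fewer orders and thus larger smallest p-values, but whether the call was lost for that reason was not tested.

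Slc25a25 had r = 0.722 (exact permutation p = 0.0205, adjusted p = 0.9999) and rho = 0.683 (exact permutation p = 0.0503), and did not pass. None of the other 29 carriers had an unadjusted exact permutation p under 0.05, and r among those reported here lay between -0.527 (Slc25a11) and 0.385 (Slc25a45). The muscle markers of each library therefore stand beside the Slc25a12 values, and whether that RNA came from muscle was not tested.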

How the data were processed

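RNA of brown adipose tissue was sequenced in 9 samples. The deposited table holds whole-number counts of reads per Ensembl gene. Per the submitters' processing notes, FastQC, STAR and DESeq2 were used with the build GRCm39, without versions or roles. No source used here states the annotation release, whether strand was used or how reads were counted. Symbols matched 52083 of 55416 identifiers.

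Counts were divided by the column sum (CPM). Levels per kilobase used the exon union of each gene in GENCODE M21 (GRCm38), since no gene model of GRCm39 was used here, and coding length was tried as an alternative. The 50-base words shared with other annotated transcripts made up at most 25.1% of a carrier (Slc25a35). Libraries A to I are the columns in table order. The permutation p-values treat the libraries as exchangeable, although they mix both guides. It could not be told whether libraries are separate animals, so differences between them may be technical. Clusters were defined by a log2 gap over 50% of the range with at least 2 libraries on each side. The correlation routine was tested on simulated data.

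The carriers, the paralogue sets and the marker lists were chosen with earlier results of these data known, and the muscle relation and the fatty acid synthesis list after the values were seen. Carriers are given by level, save 1 that is counted in the totals but not reported here. Those described further are the rest of the 8 with the highest level per kilobase, the paralogue sets, the 5 with the widest range and those called; the others named, such as Slc25a17 and Slc25a42, were chosen after their values were seen. Scaling used edgeR 4.0.16 (TMM) and DESeq2 1.42.0 (size factors) as alternatives, and tests used scipy 1.17.1 and numpy 2.4.6. Intervals and floors cover counting error only.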

Additional observations from a re-analysis of the deposited data

Results flagged for a closer look

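Of 34 quantities (the 32 carriers, their sum and the muscle marker sum), 4 had 1 library far from the other 8. That meant a gap over 0.493 of the whole range in linear CPM. Chance flags about 1 in 20 such groups if values are normally distributed, which was not tested. On log2 the same gap was 31.5% of the range for Slc25a12, 37.4% for Slc25a34, 53.6% for Slc25a11 and 66.5% for Slc25a32. Slc25a12 was 21.8 CPM in library E and 3.22 to 11.9 in the others, and that library also had the highest muscle markers. Slc25a34 was 95.7 CPM in library G and 30.5 to 62.4 in the others. Slc25a11 was 144.5 CPM in library B and 119 to 130.3 in the others. Slc25a32, a folate and FAD carrier, was 79.6 CPM in library H and 35.2 to 46.3 in the others. The guide of none of these libraries is known.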

How the results depend on the processing

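The number of carriers with at least 1 CPM in every library was 32 under all 5 other scalings, 35 at 0.5 CPM and 36 with 5 libraries required. The median summed level stayed between 4486 and 4633 CPM. Of the 8 leading carriers, 7 stayed among the first 8 without division by length and 7 with coding length, Slc25a11 falling to place 11 in both. The number of carriers with a 2-fold range was 10 to 12 over scalings and left-out libraries, and 7 sets instead of 6 had a leading share of at least 90% under both other length settings. No set changed its leading gene by the median, but the lead of Slc25a33 over Slc25a36 held in 7 of 9 libraries without division by length and in 6 with coding length. The number of carriers called for the muscle markers was 1 under Spearman, linear CPM, a pseudocount of 0.1, TMM, DESeq2 size factors, totals without the markers and the wider gene set. It ranged from 0 to 1 when each library was left out, and was 0 without the 2 farthest libraries. Fewer orders are possible there, and whether that was the reason was not tested. All planned correlations with Ucp1 were not run, since the libraries fall into clusters. No paired analysis was possible because neither replicate numbers nor guides can be read from the column headers.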

Other observations

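Ucp1 was 3848 CPM in library A, 4620 in B, 3937 in C, 2704 in D and 3652 in E. It was 396 CPM in library F, 606 in G, 445 in H and 459 in I. The first 5 and the last 4 values form separate clusters by the gap rule, which 2.01% of all 11074 genes also meet. These are values of unassigned libraries, and no carrier was averaged or compared by them.

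Slc25a1 was the 1 carrier of 32 whose own values met the gap rule, with libraries A and C at 432 and 462 CPM and the other 7 between 678 and 893 CPM. In the same columns Acly, which splits exported citrate in the cytosol, was 885 CPM in library A and 889 in C, and 2123 to 3698 CPM in the other libraries. Thrsp, a lipogenic protein, was 1238 CPM in library A and 1414 in C, and 2092 to 2698 CPM elsewhere. Fasn, the fatty acid synthase, was 17290 CPM in library A and 19130 in C, and at least 25480 CPM elsewhere. Of the 8 fatty acid synthesis genes, 7 had a range of at least 2-fold, beside 25.4% of all genes. Srebf1, Scd1 and Elovl6 did not follow that order. Srebf1 was lowest in library F at 163 CPM, Scd1 was 22840 CPM in library C and 20640 in E, and Elovl6 was 1013 CPM in library A and 1081 in C but 982 in B. These genes were listed after the Slc25a1 values were seen, and no relation between them was tested.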
